A study of Mus musculus with 12 samples.

Results

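The genes described here are 10 regulators and targets of the YAP-TEAD pathway, chosen by name with earlier results of these data known: Yap1, Tead1, Lats2, Amotl1, Amotl2, Ajuba, Ankrd1, Ccdc80, Crim1 and F3. Each was found by its symbol among the 39179 gene IDs of the series, and all 10 were among the 15266 genes that passed the filter on low values and were tested. Their RNA was measured by RNA sequencing in 4 lines of NIH-3T3, an immortalized mouse fibroblast line of NIH/Swiss background. The lines stably carried an empty vector (EV), wild-type CBL (WT-CBL), or 1 of 2 mutants that have lost ubiquitin ligase activity. CBL-70Z lacks a stretch of residues at the linker and RING region, and CBL-Y371S carries a substitution of a tyrosine in the linker. All lines were grown in serum-containing medium between passages 13 and 17 and were compared with 3 libraries each, 12 in all. The sources do not say whether a line was a pool or a clone, and each construct is represented by 1 line. CBL itself is a ligase that marks activated receptor tyrosine kinases for removal from the cell surface.

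The Hippo pathway restrains the coactivators YAP and TAZ. Its kinases LATS1 and LATS2 phosphorylate YAP, which is then held in the cytoplasm or degraded, while unphosphorylated YAP enters the nucleus and drives transcription from DNA-bound TEAD factors. In fibroblasts this output follows cell density, cell spreading and matrix stiffness, and several target genes, LATS2 and AMOTL2 among them, encode inhibitors that feed back on YAP. The data are levels of RNA, and neither the location nor the phosphorylation of YAP was measured.

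Depth was 20724468 to 29684881 reads in genes per library, and the least abundant of the 10 genes, Ankrd1, had at least 375 reads in every library. The label was checked against marker genes. All 10 fibroblast markers were expressed, with summed levels of 1003960 to 1044560 normalized reads in EV, 776058 to 824281 in CBL-Y371S, 813993 to 826497 in CBL-70Z and 911689 to 963461 in WT-CBL, so that the sum moved with the lines. The markers did not move one way. In every CBL line the mean levels of Vim and S100a4 were above EV (Vim at 93547 in EV, 135753 in CBL-Y371S, 116944 in CBL-70Z and 107014 in WT-CBL, S100a4 at 44095 in EV, 64544 in CBL-Y371S, 49851 in CBL-70Z and 56090.1 in WT-CBL), and those of the other 8, the collagens and Fn1 among them, were below it. The part of these shifts in the results below was not tested, and fewer cells of a type cannot be told apart from less RNA per cell in bulk samples. Summed levels of 6 epithelial markers were 46.1 to 319.7 and overlapped between EV and each CBL line, and those of the endothelial, blood, adipocyte and skeletal muscle lists were at most 56.7, with Hba-a1, Lep and Myod1 at 0 in every library. Both mutants lay below EV without overlap for the adipocyte list (44.2 to 56.7 in EV, 23.3 to 36.6 in CBL-Y371S and 24.1 to 33.7 in CBL-70Z) and for the muscle list (25.1 to 35.0 in EV, 10.5 to 22.2 in CBL-Y371S and 17.8 to 18.4 in CBL-70Z), and the part of this in the results was not tested. Reads at mouse Cbl ranged from 625 to 728 in EV, 1407 to 1680 in CBL-Y371S, 1614 to 1820 in CBL-70Z and 688 to 925 in WT-CBL, and the WT-CBL libraries overlapped those of EV. How far reads at mouse Cbl count the introduced CBL was not tested. WT-CBL replicate 3 and CBL-Y371S replicate 2 stood farthest from the other libraries of their lines (root mean square log2 difference of 0.134 and 0.138, against 0.0784 to 0.0999 in the other 10). Fold changes against EV followed exon length across 11141 abundant genes (Spearman rho of -0.52 in CBL-Y371S, -0.26 in CBL-70Z and -0.59 in WT-CBL, given as a description). Where a fold change printed below gained or lost a call, or was called and moved by over 1.5 times, once each library's dependence on exon length and GC content was taken out, that second value is given beside it.

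Levels are normalized reads, meaning reads divided by the size factor of the library, and fold changes are differences of log2(value + 1) with their standard error (SE) from limma. A gene is called at a limma p below 0.05 after Benjamini-Hochberg adjustment over all tested genes. Whether the 3 libraries of a line came from separate cultures is not stated, and a p-value here covers no more than the variation among them. Because every comparison with EV uses the same 3 EV libraries, the comparisons are not independent of one another.

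Against EV the 10 YAP-TEAD genes were mostly lower, and each CBL line had its own combination. The counts are a description and no test of the pathway, since the 10 genes were chosen with earlier results known. In WT-CBL, 8 of the 10 were called, 1 higher and 7 lower, where 41.8% of all tested genes were called (20.8% higher and 21.0% lower). In CBL-70Z, 7 of the 10 were called and all 7 were lower, where 24.3% of all tested genes were called (12.2% higher and 12.1% lower). In CBL-Y371S all 10 were called, 1 higher and 9 lower, where 60.1% of all tested genes were called (29.8% higher and 30.3% lower). The median log2 fold change of the 10 genes was -0.15, -0.29 and -0.49 in the 3 lines, and that of all tested genes was 0.01 in each. With the length and GC trend removed the counts of called members were 7, 7 and 9, beside 35.6%, 26.4% and 55.7% of genes. These were 1 higher and 6 lower in WT-CBL, 1 higher and 6 lower in CBL-70Z, and 1 higher and 8 lower in CBL-Y371S. In CBL-70Z Tead1 gained a call as higher and Yap1 lost its call. Leaving out WT-CBL replicate 3 or CBL-Y371S replicate 2 gave 8, 7 and 10 called members, as with all libraries.

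**Figure D1:**
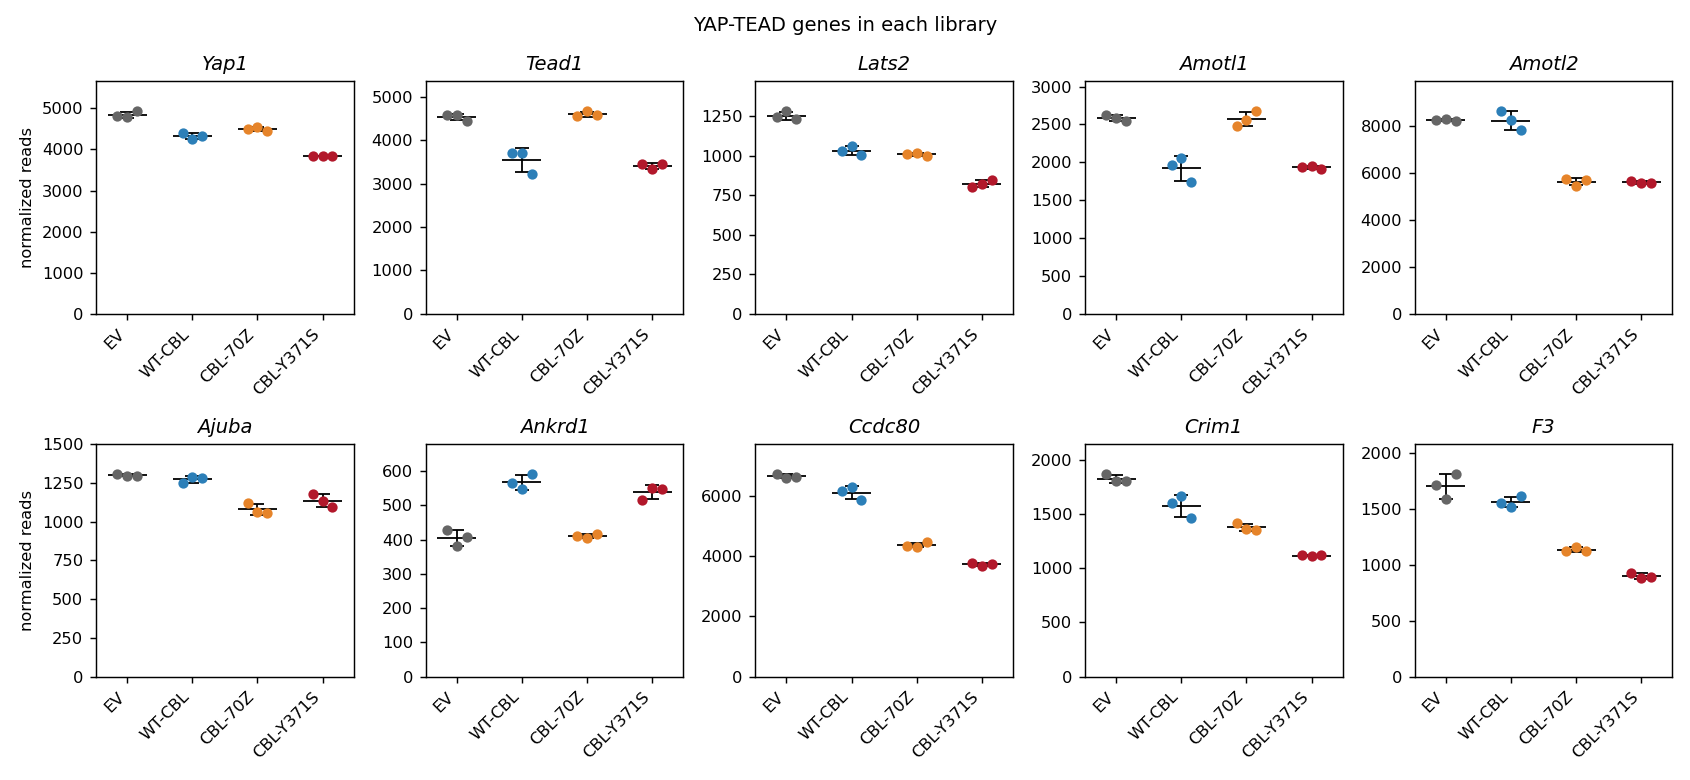
Normalized reads of the 10 YAP-TEAD genes (vertical axes, starting at 0) in each of the 12 libraries, by line; points are libraries, and the bar and whiskers are the mean and SD of 3. F3 and Ccdc80 step down from EV to CBL-Y371S, Tead1 and Amotl1 are low in WT-CBL and CBL-Y371S alone, and Ankrd1 is high in those same lines.

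The promoters of genes that moved in different ways are shown with the letters bound by TEAD factors. Of the 10 genes, 8 matched a RefSeq promoter of GRCm38.p6, and the 250 bases before the start were searched on both strands for CATTCC, the core of the TEAD motif (on the opposite strand these letters read GGAATG), and for TGANTCA, the motif of AP-1, a factor that often binds beside TEAD. The TEAD letters stood in 5 of the 8, at Yap1, Amotl2, Ajuba, Ankrd1 and Crim1, and in 12.6% of 32851 promoters of the same length. The AP-1 letters stood only at F3, which held 2 copies, and in 6.75% of those promoters. A match is a description of the letters and not a site of binding. In the lines that follow, Ankrd1 is chr19:36119845-36120094, minus strand, with TEAD letters 210 and 123 bases upstream, and Amotl2 is chr9:102717554-102717803, plus strand, with 1 copy 65 bases upstream. Crim1 is chr17:78199998-78200247, plus strand, with 1 copy 79 bases upstream, and F3 is chr3:121723287-121723536, plus strand, with AP-1 letters 146 and 135 bases upstream. Sequences run 5′ to 3′ on the strand of the gene, and capitals mark the motif letters.
Ankrd1: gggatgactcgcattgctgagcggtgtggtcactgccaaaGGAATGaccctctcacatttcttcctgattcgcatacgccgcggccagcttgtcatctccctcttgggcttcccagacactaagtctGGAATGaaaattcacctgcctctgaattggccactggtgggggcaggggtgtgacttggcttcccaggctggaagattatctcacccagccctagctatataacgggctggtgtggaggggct
Amotl2: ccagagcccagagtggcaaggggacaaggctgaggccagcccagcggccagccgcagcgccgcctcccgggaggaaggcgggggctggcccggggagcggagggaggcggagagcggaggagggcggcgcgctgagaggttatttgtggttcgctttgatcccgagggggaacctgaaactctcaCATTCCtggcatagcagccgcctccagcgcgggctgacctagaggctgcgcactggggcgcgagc
Crim1: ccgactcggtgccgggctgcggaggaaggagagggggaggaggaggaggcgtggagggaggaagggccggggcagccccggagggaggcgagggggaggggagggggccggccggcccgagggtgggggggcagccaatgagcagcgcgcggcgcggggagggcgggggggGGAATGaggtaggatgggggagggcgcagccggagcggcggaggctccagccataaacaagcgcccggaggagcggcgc
F3: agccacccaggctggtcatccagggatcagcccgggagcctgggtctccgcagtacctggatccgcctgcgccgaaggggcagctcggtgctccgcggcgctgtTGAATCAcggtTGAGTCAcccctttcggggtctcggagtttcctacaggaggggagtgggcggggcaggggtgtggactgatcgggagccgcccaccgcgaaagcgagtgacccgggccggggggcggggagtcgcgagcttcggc

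Among the genes with TEAD letters in this window, Ankrd1 rose in CBL-Y371S, and Yap1, Amotl2, Ajuba and Crim1 fell. Lats2, Amotl1 and F3, with no TEAD letters there, fell as well, F3 most of the 10. Whether the letters had a part in these changes was not tested.

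Yap1 (ENSMUSG00000053110, chromosome 9, 7931999 to 8004596 of GRCm38) encodes the coactivator YAP. It stood at 4807, 4789 and 4927 in EV, 4391, 4256 and 4319 in WT-CBL, 4509, 4553 and 4437 in CBL-70Z, and 3839, 3845 and 3838 in CBL-Y371S normalized reads. No library of a CBL line reached the lowest EV library, and the CBL-Y371S libraries were below all others. The log2 fold change against EV was -0.33 ± 0.03 (adjusted p = 1.5e-09) in CBL-Y371S, -0.11 ± 0.03 (adjusted p = 0.00576) in CBL-70Z and -0.16 ± 0.03 (adjusted p = 5.68e-05) in WT-CBL. Once the length and GC trend was taken out, the values in the same order were -0.13 (adjusted p = 0.000305), -0.05 (adjusted p = 0.225) and -0.01 (adjusted p = 0.773), so the calls in WT-CBL and CBL-70Z were lost and that in CBL-Y371S was kept at a smaller size. Its exons span 9257 bases, 116 of which it shares with Gm20416 on the opposite strand.

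Tead1 (ENSMUSG00000055320, chromosome 7, 112679318 to 112906807) encodes a DNA-binding partner of YAP. It stood at 4576, 4587 and 4460.2 in EV, 3721, 3710.0 and 3224 in WT-CBL, 4563, 4671 and 4584 in CBL-70Z, and 3457, 3342 and 3466 in CBL-Y371S. CBL-70Z overlapped EV, while every WT-CBL and CBL-Y371S library lay below both. Against EV it fell by 0.36 ± 0.04 on the log2 scale in WT-CBL (adjusted p = 1.25e-06) and by 0.41 ± 0.04 in CBL-Y371S (adjusted p = 4.63e-08), and the difference in CBL-70Z was 0.02 ± 0.04 (adjusted p = 0.776) with a 95% interval of -0.07 to 0.11. Tead1 has the longest exons of the 10 genes, 13570 bases. With the length and GC trend removed, the fold change was -0.05 in CBL-Y371S, no longer called (adjusted p = 0.0948), 0.08 in CBL-70Z, now called (adjusted p = 0.0118), and -0.11 in WT-CBL (adjusted p = 0.000932).

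Amotl1 (ENSMUSG00000013076, chromosome 9, 14541966 to 14645056) encodes a motin, a junctional scaffold that binds YAP and holds it outside the nucleus. It stood at 2623, 2581 and 2542 in EV, 1964, 2059 and 1743 in WT-CBL, 2479, 2564 and 2672 in CBL-70Z, and 1942, 1950.3 and 1914 in CBL-Y371S. As for Tead1, the CBL-70Z libraries overlapped EV and all libraries of the other CBL lines were lower. Its fold change was -0.43 ± 0.05 (adjusted p = 4.8e-07) in WT-CBL and -0.42 ± 0.05 (adjusted p = 1.47e-07) in CBL-Y371S, leaving 74.4% and 75.0% of the EV level. In CBL-70Z it was -0.01 ± 0.05 (adjusted p = 0.944), with a 95% interval of -0.10 to 0.09. The calls were kept at -0.27 and -0.23 once the length and GC trend was removed.

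Amotl2 (ENSMUSG00000032531, chromosome 9, 102716672 to 102733418), the motin that is itself a YAP target, did not follow Amotl1. It stood at 8239, 8276 and 8189.8 in EV, 8610.2, 8243 and 7802 in WT-CBL, 5723, 5438 and 5709 in CBL-70Z, and 5659.9, 5559 and 5554 in CBL-Y371S. Both mutants lay far below EV and WT-CBL, whose libraries overlapped. Against EV the fold change was -0.55 ± 0.03 (adjusted p = 1.03e-10) in CBL-70Z and -0.56 ± 0.03 (adjusted p = 1.54e-11) in CBL-Y371S, or 68.3% and 67.9% of EV. In WT-CBL it was -0.00 (95% interval -0.07 to 0.06, adjusted p = 0.933).

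Lats2 (ENSMUSG00000021959, chromosome 14, 57689662 to 57758388), the kinase that inactivates YAP and is induced by it, stood at 1245, 1279 and 1229 in EV, 1029.7, 1059.8 and 1003 in WT-CBL, 1008, 1017 and 997 in CBL-70Z, and 801, 817 and 847 in CBL-Y371S. It was lower than EV in every library of the CBL lines, and lowest in CBL-Y371S. Against EV it was at -0.61 ± 0.04 (adjusted p = 7.06e-11) in CBL-Y371S, -0.31 ± 0.04 (adjusted p = 4.57e-06) in CBL-70Z and -0.28 ± 0.04 (adjusted p = 1.09e-05) in WT-CBL on the log2 scale. In the GENCODE annotation 2955 of its 6971 exonic bases are shared with Gm49361 on the same strand, so reads there may not all have been counted for Lats2.

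Ajuba (ENSMUSG00000022178, chromosome 14, 54567472 to 54577558), a LIM protein that binds and inhibits LATS kinases, fell in both mutants. It stood at 1309, 1299 and 1297 in EV, 1249.8, 1293 and 1285 in WT-CBL, 1120.0, 1062 and 1059 in CBL-70Z, and 1179, 1133 and 1096 in CBL-Y371S. The mutants lay below EV and WT-CBL, and the WT-CBL libraries were just below those of EV without overlap. It changed by -0.27 ± 0.04 (adjusted p = 2.51e-05) in CBL-70Z and -0.20 ± 0.04 (adjusted p = 0.000172) in CBL-Y371S, and -0.03 in WT-CBL (95% interval -0.11 to 0.05, adjusted p = 0.587). The fall in CBL-Y371S was -0.32 with the length and GC trend removed.

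Ankrd1, a target, was the only one of the 10 genes called higher than EV before the length and GC trend was removed. Ankrd1 (ENSMUSG00000024803, chromosome 19, 36111961 to 36120099) encodes an ankyrin repeat protein of muscle sarcomeres and the nucleus and is among the most used readouts of YAP. It stood at 429, 382 and 407 in EV, 564, 547 and 591 in WT-CBL, 411, 406 and 416 in CBL-70Z, and 514, 552 and 549 in CBL-Y371S. All WT-CBL and CBL-Y371S libraries were above all EV and CBL-70Z libraries, which overlapped. The fold change was 0.48 ± 0.06 (adjusted p = 1.22e-06) in WT-CBL, 139.9% of EV, and 0.41 ± 0.06 (adjusted p = 2.65e-06) in CBL-Y371S, 133% of EV. In CBL-70Z it was 0.02 ± 0.06 (adjusted p = 0.855), with a 95% interval of -0.10 to 0.14.

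Ccdc80 (ENSMUSG00000022665, chromosome 16, 45093402 to 45128077), a secreted protein of the extracellular matrix, stood at 6738, 6622 and 6654 in EV, 6159.5, 6299.5 and 5876 in WT-CBL, 4339, 4328 and 4473 in CBL-70Z, and 3769, 3667 and 3752 in CBL-Y371S. The 4 lines did not overlap and stepped down from EV through WT-CBL and then CBL-70Z to CBL-Y371S. In that order of the CBL lines the fold change was -0.13 ± 0.03 (adjusted p = 0.00163), -0.61 ± 0.03 (adjusted p = 5.12e-12) and -0.84 ± 0.03 (adjusted p = 1.07e-14), which left 91.6%, 65.7% and 55.9% of the EV level.

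F3 (ENSMUSG00000028128, chromosome 3, 121723537 to 121735048), tissue factor, the cell-surface trigger of blood clotting, stood at 1713, 1589 and 1812 in EV, 1555, 1519 and 1614 in WT-CBL, 1125, 1160.4 and 1122 in CBL-70Z, and 928, 881 and 889 in CBL-Y371S. The same order held for the line means, but WT-CBL and EV overlapped, while both mutants lay below them and apart from each other. The fold change was -0.58 ± 0.04 (adjusted p = 4.82e-09) in CBL-70Z and -0.92 ± 0.04 (adjusted p = 1.19e-12) in CBL-Y371S, or 66.6% and 52.8% of EV. In WT-CBL it was -0.12 ± 0.04 (adjusted p = 0.0303), a call that was lost without EV replicate 3 (-0.08, adjusted p = 0.194), EV replicate 1 (0.0815), WT-CBL replicate 1 (0.0643) or WT-CBL replicate 2 (0.103). It was -0.20 with the length and GC trend removed.

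Crim1 (ENSMUSG00000024074, chromosome 17, 78200248 to 78376592), a transmembrane protein with cysteine-rich repeats that binds bone morphogenetic proteins, stood at 1869.9, 1802 and 1808 in EV, 1602, 1667 and 1464 in WT-CBL, 1418, 1360.5 and 1355 in CBL-70Z, and 1118, 1112 and 1121 in CBL-Y371S. The lines followed the order of Ccdc80 with no overlap. Its log2 fold change was -0.71 ± 0.04 (adjusted p = 2.19e-11) in CBL-Y371S, -0.41 ± 0.04 (adjusted p = 3.85e-07) in CBL-70Z and -0.21 ± 0.04 (adjusted p = 0.000399) in WT-CBL. It shares 123 exonic bases with Fez2 on the opposite strand, and the kit used for the libraries leaves the strand of a read unknown.

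**Figure D2:**
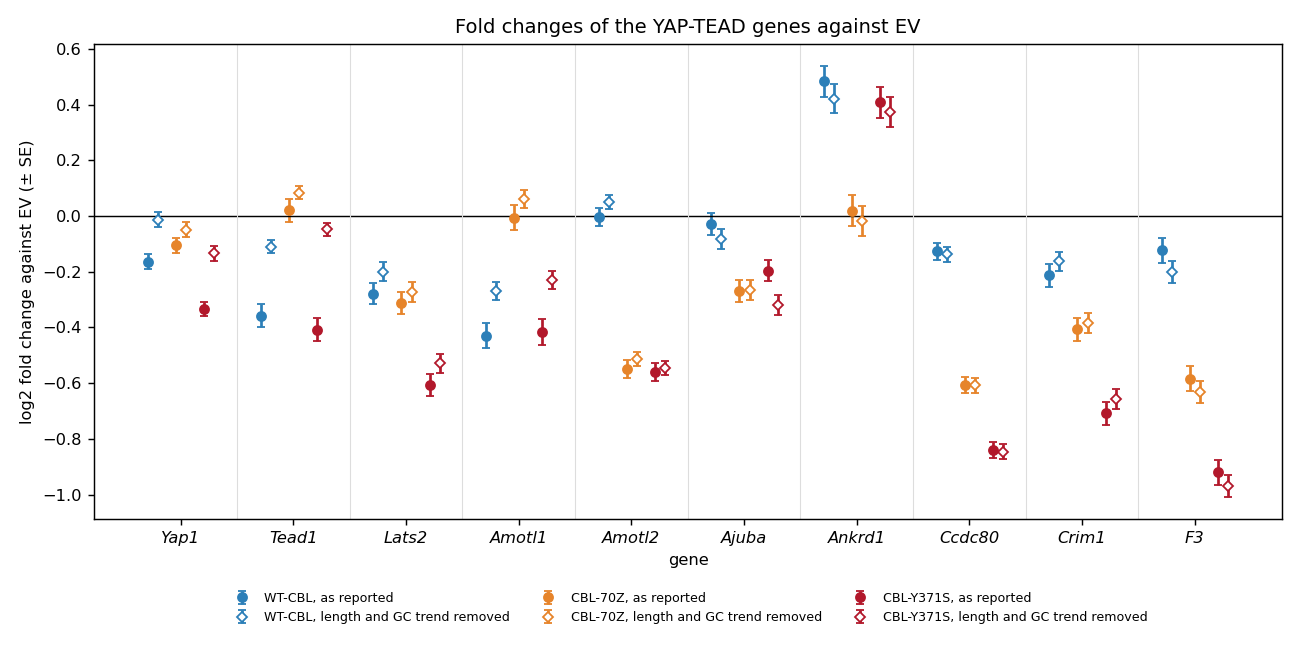
Log2 fold change against EV (vertical axis) of the 10 genes in the 3 CBL lines; filled circles are the values as reported, open diamonds the values with the exon length and GC trend removed, and bars are SE. Tead1 moves from -0.41 to -0.05 in CBL-Y371S and Yap1 from -0.16 to -0.01 in WT-CBL, whereas the 3 values of Ccdc80 barely move.

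The mutants were next compared with WT-CBL. Reads at mouse Cbl were higher in both mutants than in WT-CBL, with no overlap, but may not measure the introduced CBL. Each construct is 1 line, so loss of ligase activity, the amount of CBL and the line itself cannot be told apart in these comparisons. In CBL-70Z against WT-CBL 8 of the 10 genes were called, 2 higher and 6 lower, beside 35.2% of all tested genes (18.9% higher and 16.3% lower). In CBL-Y371S against WT-CBL 7 were called and all were lower, beside 40.0% of genes (18.5% higher and 21.5% lower). In each of these comparisons 8 of the 10 were called with the length and GC trend removed, beside 32.4% and 37.6% of genes. These were 2 higher and 6 lower in CBL-70Z, and 1 higher and 7 lower in CBL-Y371S. Of the 10 genes, 5 were called lower in both mutants than in WT-CBL: Amotl2, Ccdc80, Crim1, F3 and Ajuba. The 2 comparisons share the WT-CBL libraries. For F3 the differences were -0.46 ± 0.04 (adjusted p = 1.18e-07) in CBL-70Z and -0.80 ± 0.04 (adjusted p = 2.59e-11) in CBL-Y371S, and for Ccdc80 -0.48 ± 0.03 (adjusted p = 1.48e-10) and -0.71 ± 0.03 (adjusted p = 2.79e-13). Amotl2 was at -0.55 ± 0.03 (adjusted p = 8.49e-11) and -0.55 ± 0.03 (adjusted p = 5.36e-11), Crim1 at -0.19 ± 0.04 (adjusted p = 0.00119) and -0.50 ± 0.04 (adjusted p = 1.4e-08), and Ajuba at -0.24 ± 0.04 (adjusted p = 5.84e-05) and -0.17 ± 0.04 (adjusted p = 0.00158).

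Each of the remaining 5 genes was called against WT-CBL in 1 mutant alone. Tead1 and Amotl1 were higher in CBL-70Z than in WT-CBL, by 0.38 ± 0.04 (adjusted p = 6.28e-07) and 0.42 ± 0.05 (adjusted p = 5.52e-07), and Ankrd1 was lower, at -0.47 ± 0.06 (adjusted p = 2.04e-06). The rise of Tead1 was 0.19 with the length and GC trend removed. In CBL-Y371S against WT-CBL these 3 were not called. The differences there were -0.05 (95% interval -0.14 to 0.04, adjusted p = 0.358) for Tead1, 0.01 (-0.08 to 0.11, adjusted p = 0.844) for Amotl1 and -0.08 (-0.19 to 0.04, adjusted p = 0.302) for Ankrd1. The value of Tead1 rested on WT-CBL replicate 3, its lowest library. Without that library the difference was -0.12 and called (adjusted p = 0.000883), and with the length and GC trend removed its sign turned, to 0.06 (adjusted p = 0.0441), which was not called with the replicate number as a block in the same fit (adjusted p = 0.0549). Yap1 and Lats2 were lower in CBL-Y371S than in WT-CBL, at -0.17 ± 0.03 (adjusted p = 3.41e-05) and -0.33 ± 0.04 (adjusted p = 1.34e-06), and were not called in CBL-70Z, at 0.06 (0.00 to 0.11, adjusted p = 0.0978) and -0.03 (-0.11 to 0.05, adjusted p = 0.545).

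Direct comparison of CBL-70Z with CBL-Y371S called 8 of the 10 genes, 7 higher and 1 lower in CBL-70Z, beside 50.4% of all tested genes (25.9% higher and 24.5% lower), and 8 beside 40.8% with the length and GC trend removed. The median difference of the 10 genes was 0.26, against -0.01 over all tested genes. Of the genes that were higher, Tead1 differed most, by 0.43 ± 0.04 (adjusted p = 5.91e-08), followed by Amotl1 at 0.41 ± 0.05 (adjusted p = 3.99e-07) and F3 at 0.34 ± 0.04 (adjusted p = 3.02e-06). With the length and GC trend removed these were 0.13, 0.29 and 0.34, and that of Yap1 went from 0.23 to 0.09, all still called. Ankrd1 was lower in CBL-70Z, at -0.39 ± 0.06 (adjusted p = 8.56e-06). Amotl2 differed by 0.01 with a 95% interval of -0.06 to 0.08 (adjusted p = 0.857), and Ajuba by -0.07 with an interval of -0.15 to 0.01 (adjusted p = 0.123).

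**Figure D3:**
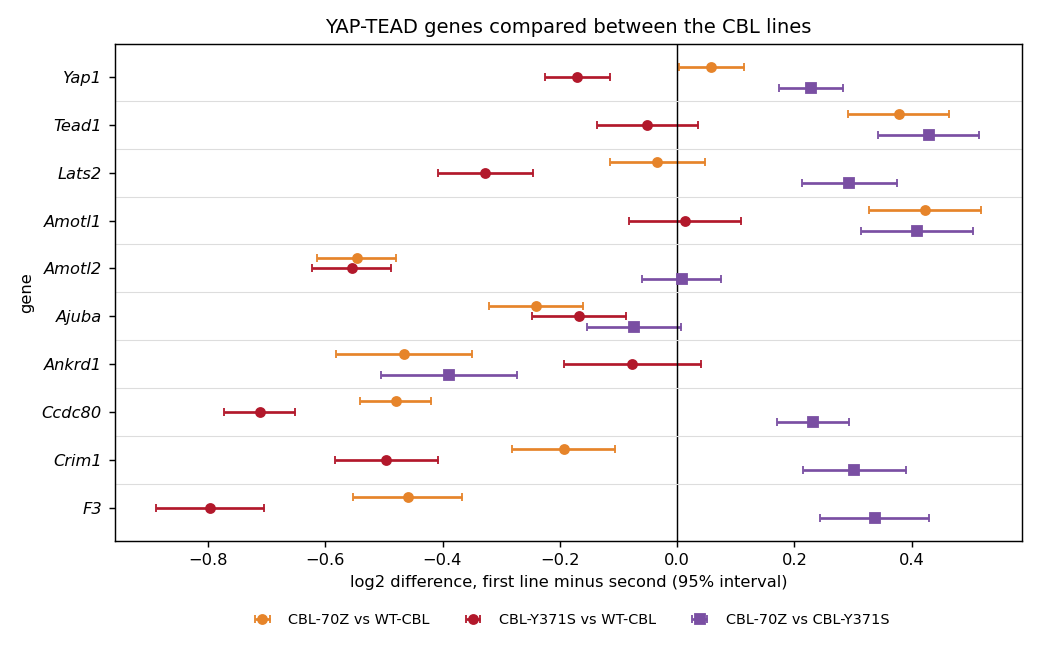
Log2 differences between the CBL lines (horizontal axis, first line minus second) for the 10 genes; points are limma estimates and bars their 95% intervals. Amotl2 sits near -0.55 in both mutants against WT-CBL and at 0.01 between the mutants, whereas Tead1 and Amotl1 differ between CBL-70Z and each of the other CBL lines.

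Levels per length (RPKM, reads scaled to exon length and to the total of reads in genes, mean ± SD, n = 3) set the genes in order. In EV the order was Ccdc80 at 62.8 ± 0.420, Amotl2 at 52.9 ± 0.242, F3 at 27.2 ± 1.85, Yap1 at 21.1 ± 0.402, Ajuba at 14.4 ± 0.0253, Tead1 at 13.5 ± 0.166, Crim1 at 12.3 ± 0.210, Amotl1 at 10.4 ± 0.118, Lats2 at 7.25 ± 0.141 and Ankrd1 at 5.68 ± 0.316 RPKM. Neighbours in this order were all farther apart than the sum of their SDs. The place of Lats2 is less sure than its SD shows. Its reads were divided by all 6971 exonic bases, and reads on the 2955 shared with Gm49361 may not have been counted for it. In CBL-Y371S, Ccdc80 (36.3 ± 0.803) no longer differed from Amotl2 (37.2 ± 0.549) beyond the spread, F3 (14.9 ± 0.476) had come to lie below Yap1 (17.4 ± 0.120), and Ankrd1 (7.80 ± 0.286) did not differ beyond the spread from Crim1 (7.80 ± 0.0909) or Amotl1 (8.04 ± 0.0459).

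The genes fell into patterns over the 12 libraries, given here as a description, since libraries of a line share that line and the points are 4 clusters of 3. The levels used still held the exon length and GC trend, and the patterns were not computed with it removed. In CBL-Y371S against EV the trend made up -0.36 of the -0.41 of Tead1 and -0.19 of the -0.42 of Amotl1. For Ankrd1 it made up 0.03 of 0.41. Pearson's r was 0.98 between Tead1 and Amotl1 and -0.95 and -0.96 between these and Ankrd1. It was 0.98 between Ccdc80 and F3 and 0.96 between Ccdc80 and each of Crim1 and Amotl2. The motins Amotl1 and Amotl2 were at 0.02. Among 10322 abundant genes, the most alike by the same measure was Sestd1 for Yap1 (0.994), Nin for Tead1 (0.997), Pde4b for Lats2 (0.996), Usp22 for Amotl1 (0.987) and Pawr for Amotl2 (0.991). It was Id1 for Ankrd1 (0.984), Dysf for Ccdc80 (0.996), Cemip for Crim1 (0.996), C1qtnf6 for F3 (0.988) and Myd88 for Ajuba (0.977). Id1, a helix-loop-helix inhibitor, averaged 917 and 922 normalized reads in EV and CBL-70Z, and 1902 and 1611 in WT-CBL and CBL-Y371S.

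The rest of the pathway was read from 3 lists. The first held 24 upstream regulators of which 23 were tested. In WT-CBL 18 were called, all lower, in CBL-70Z 8 were called (3 higher, 5 lower), and in CBL-Y371S 19 were called (2 higher, 17 lower), beside the 41.8%, 24.3% and 60.1% of all tested genes given above. Without EV replicate 2, 5 regulators were called in CBL-70Z. The median log2 fold changes were -0.18, -0.04 and -0.16. With the length and GC trend removed the counts were 1 higher and 9 lower, 5 higher and 5 lower, and 6 higher and 11 lower, beside 35.6%, 26.4% and 55.7% of genes, so the split between higher and lower moved in all 3 lines. In CBL-Y371S the falls of Taok3 and Map4k4 turned into called rises, and those of Sav1, Mob1b and Nf2 turned in sign without a call. In WT-CBL those of Mob1b and Taok2 turned in sign without a call.

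Fat4, a large protocadherin related to Fat, which acts upstream of the kinases in the fly pathway, was the called regulator with the lowest fold change in each CBL line. It stood at 2587, 2622 and 2576 in EV, 1742, 1926 and 1376 in WT-CBL, 1684, 1571 and 1553 in CBL-70Z, and 938, 895 and 900.3 in CBL-Y371S. No CBL library reached EV, and the CBL-Y371S libraries were below all others. Its fold change was -1.51 ± 0.07 (adjusted p = 1.83e-12), -0.70 ± 0.07 (adjusted p = 6.68e-07) and -0.64 ± 0.07 (adjusted p = 1.45e-06) in CBL-Y371S, CBL-70Z and WT-CBL, and -1.12, -0.62 and -0.35 with the trend removed. Dchs1, the partner protocadherin of Fat4, was at -0.60 ± 0.20 in WT-CBL (adjusted p = 0.0181), from a mean of 33.6 reads in EV, and was -0.42 and no longer called with the trend removed (adjusted p = 0.0954). Amot, the founding motin, fell by 0.82 ± 0.04 in CBL-Y371S (adjusted p = 1.72e-12). It was also called in WT-CBL, at -0.46 ± 0.04 (adjusted p = 4.19e-08), and in CBL-70Z, at -0.19 ± 0.04 (adjusted p = 0.00128). Wwc2, a scaffold of LATS, fell by 0.31 ± 0.04 in CBL-70Z (adjusted p = 4.14e-06). It was also called in CBL-Y371S, at -0.54 ± 0.04 (adjusted p = 3.14e-10), and in WT-CBL, at -0.37 ± 0.04 (adjusted p = 3.65e-07). With the trend removed it was -0.21 in CBL-Y371S and -0.13 in WT-CBL. The rises were smaller. Stk3, the kinase MST2, was at 0.21 ± 0.03 (adjusted p = 9.9e-05) in CBL-70Z. In CBL-Y371S Stk3 was at -0.04 ± 0.03 and not called (adjusted p = 0.344), and at 0.22 and called with the trend removed (adjusted p = 8.4e-06). Mink1, a kinase of the Ste20 family, was at 0.14 ± 0.04 (adjusted p = 0.0164) in CBL-70Z and 0.15 ± 0.04 (adjusted p = 0.00274) in CBL-Y371S. In WT-CBL both Stk3 and Mink1 were called lower, at -0.15 ± 0.03 (adjusted p = 0.00139) and -0.13 ± 0.04 (adjusted p = 0.0138). With the trend removed these were -0.04 and -0.07 and no longer called (adjusted p = 0.353 and 0.103). Rassf1, a scaffold of the MST kinases, was at 0.18 ± 0.05 (adjusted p = 0.0024) in CBL-Y371S.

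The second list held 8 TEAD factors and cofactors, of which 6 were tested. In WT-CBL 3 were called (1 higher, 2 lower), in CBL-70Z 4 (2 higher, 2 lower) and in CBL-Y371S all 6 (2 higher, 4 lower), beside 41.8%, 24.3% and 60.1% of all tested genes. The counts were the same once the trend was removed, beside 35.6%, 26.4% and 55.7%. Wwtr1, which encodes TAZ, the close relative of YAP, stood at 3583, 3593 and 3686 in EV, 2782, 2835 and 2647 in WT-CBL, 3718, 3932 and 3773 in CBL-70Z, and 2761, 2957 and 2828 in CBL-Y371S. It was low in WT-CBL and CBL-Y371S and not in CBL-70Z, as Tead1 was before the trend was removed. Its fold changes were -0.35 ± 0.03 (adjusted p = 3.52e-08), 0.07 ± 0.03 (adjusted p = 0.14) and -0.39 ± 0.03 (adjusted p = 4.24e-08) in CBL-Y371S, CBL-70Z and WT-CBL. With the trend removed Wwtr1 kept its calls, at -0.23 in CBL-Y371S and -0.37 in WT-CBL. Tead1 lost its call in CBL-Y371S, at -0.05 (adjusted p = 0.0948).

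Tead4, another TEAD factor, stood at 701, 621 and 675 in EV, 671, 671 and 656 in WT-CBL, 947, 916 and 907 in CBL-70Z, and 982, 991 and 991 in CBL-Y371S. Both mutants were above EV and WT-CBL, which overlapped, with fold changes of 0.47 ± 0.05 (adjusted p = 1.66e-07) in CBL-70Z and 0.57 ± 0.05 (adjusted p = 1.77e-09) in CBL-Y371S. Tead2 was at 0.27 ± 0.03 (adjusted p = 2.23e-07), 0.15 ± 0.03 (adjusted p = 0.00113) and 0.12 ± 0.03 (adjusted p = 0.00338) in CBL-Y371S, CBL-70Z and WT-CBL. Tead3 fell by 0.32 ± 0.04 in CBL-70Z (adjusted p = 1.8e-06) and was also called in CBL-Y371S, at -0.15 ± 0.04 (adjusted p = 0.00125). Vgll3, a TEAD cofactor, was at -0.54 ± 0.05 (adjusted p = 3e-08) in CBL-70Z and -0.74 ± 0.05 (adjusted p = 6.33e-11) in CBL-Y371S, the latter at -0.48 with the trend removed. Vgll4, which competes with YAP for TEAD, was at -0.14 ± 0.05 (adjusted p = 0.0163) in WT-CBL and -0.39 ± 0.05 (adjusted p = 3.29e-07) in CBL-Y371S.

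The third list held 16 further genes of a YAP and TAZ target signature, of which 15 were tested. In WT-CBL 8 were called (2 higher, 6 lower), in CBL-70Z 7, all lower, and in CBL-Y371S 11 (3 higher, 8 lower), beside the same 41.8%, 24.3% and 60.1% of genes, and the medians were -0.05, -0.17 and -0.15. With the length and GC trend removed the counts were 1 higher and 4 lower, 1 higher and 7 lower, and 2 higher and 6 lower, beside 35.6%, 26.4% and 55.7%. In CBL-Y371S the fall of Myof turned into a called rise and that of Dock5 turned in sign without a call, and in WT-CBL that of Myof turned in sign without a call. The secreted matricellular proteins Ctgf and Cyr61 are the targets most often measured beside Ankrd1.

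Ctgf stood at 1229, 1259 and 1237 in EV, 1698, 1727 and 1769 in WT-CBL, 1180.3, 1103 and 1164 in CBL-70Z, and 1489, 1516 and 1414 in CBL-Y371S. As for Ankrd1, all WT-CBL and CBL-Y371S libraries were above EV. Unlike Ankrd1, whose CBL-70Z libraries overlapped EV, Ctgf lay below EV in CBL-70Z. Its fold change was 0.25 ± 0.04 (adjusted p = 1.26e-05), -0.11 ± 0.04 (adjusted p = 0.0367) and 0.48 ± 0.04 (adjusted p = 1.26e-08) in CBL-Y371S, CBL-70Z and WT-CBL, and the rise in CBL-Y371S was 0.14 with the trend removed. Cyr61 stood at 3387, 3166 and 3124 in EV, 3507, 3477 and 3648 in WT-CBL, 2297, 2336 and 2334 in CBL-70Z, and 3123, 3119.8 and 3179 in CBL-Y371S. CBL-70Z lay below all other lines, and WT-CBL above them. Its fold change was -0.47 ± 0.03 (adjusted p = 1.35e-09) in CBL-70Z and 0.14 ± 0.03 (adjusted p = 0.00234) in WT-CBL, the latter at 0.02 and no longer called with the trend removed (adjusted p = 0.726), and it was -0.04 ± 0.03 in CBL-Y371S (adjusted p = 0.336), where it was -0.22 and called lower with the trend removed (adjusted p = 1.3e-06).

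Other targets fell. Foxf2, a forkhead transcription factor, was at -0.29 ± 0.03 (adjusted p = 1.05e-07) in CBL-70Z. It was also called in CBL-Y371S, at -0.33, and was -0.54 there with the trend removed (adjusted p = 4.67e-14). Ptpn14, a phosphatase that binds YAP, was at -0.30 ± 0.05 (adjusted p = 9.93e-05) in WT-CBL, where it was -0.08 and the call was lost with the trend removed (adjusted p = 0.0705). In CBL-Y371S it was at -0.46 ± 0.05 (adjusted p = 1.46e-07), and at -0.20 with the trend removed. In CBL-70Z it was at -0.19 ± 0.05 (adjusted p = 0.0106), and at -0.10 with the trend removed. Dock5, an exchange factor for RAC, was at -0.34 ± 0.05 (adjusted p = 3.59e-05) in WT-CBL, or -0.12 with the trend removed. In CBL-Y371S Dock5 was called at -0.23, and was 0.08 and not called with the trend removed (adjusted p = 0.102). Tgfb2, a TGF-beta ligand, was at -0.63 ± 0.08 (adjusted p = 1.36e-06) in CBL-Y371S. Fjx1 was higher in CBL-Y371S by 0.29 ± 0.10 (adjusted p = 0.0167), which was 0.13 and no longer called with the trend removed (adjusted p = 0.282).

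**Figure D4:**
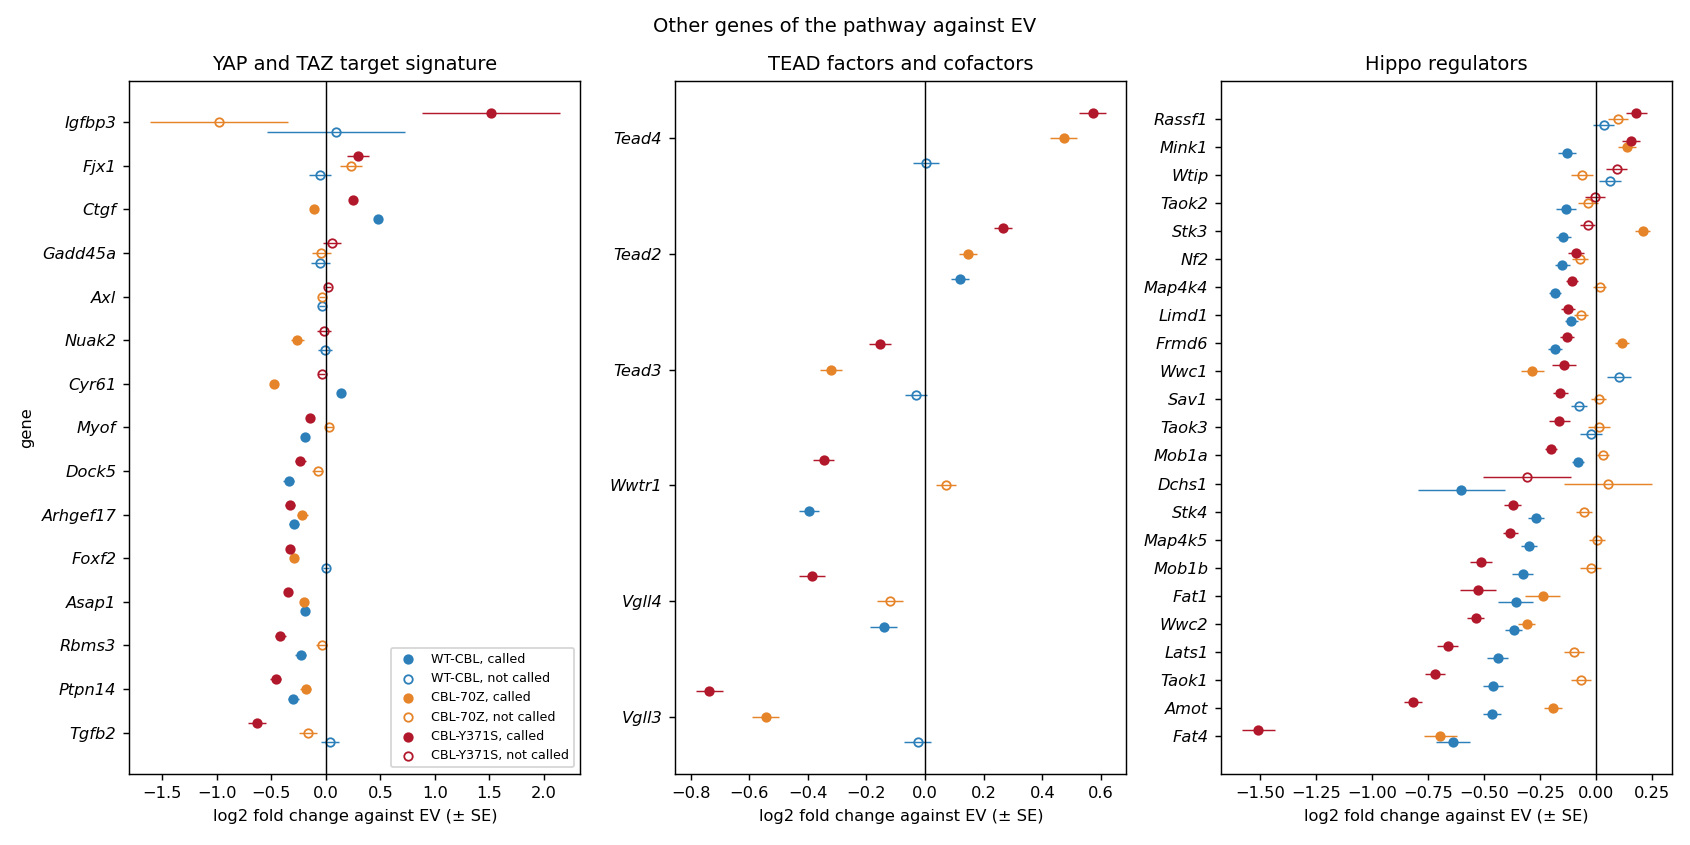
Log2 fold change against EV (horizontal axes) of the other genes of the pathway in the 3 CBL lines, in 3 lists; filled points are called, open points are not, and bars are SE. Ctgf lies to the right of 0 in WT-CBL and CBL-Y371S and to the left in CBL-70Z, Tead4 to the right in both mutants, and Fat4 far to the left in CBL-Y371S.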

How the data were processed

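RNA sequencing of 12 libraries of 4 NIH-3T3 lines (mouse) was used, 3 per line, grouped by GEO's labels. The authors checked reads with FastQC 0.10.1, used TopHat2 2.0.13 with Bowtie2 2.2.4.0 for alignment to GRCm38, counted per gene with HTSeq 0.9.1 and normalized with DESeq2. The annotation and HTSeq's strand setting are not given in the sources used here. They deposited size-factor-normalized counts (signal) in 3 tables, each a CBL line beside EV. The authors' fold changes and p-values in these tables were not used.

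Reads were recovered as whole numbers for 100% of values (tolerance 1e-06), with identical EV reads in the 3 tables, and scaled with median-of-ratios size factors. Depth was 20724468 to 29684881 reads in genes. A gene entered the test if any line averaged 10 or more, and limma 3.58.1 (R 4.3.3, trend) was run on log2(value + 1), with all lines in 1 fit. Such fold changes understate changes of low genes. The test was tried on simulated data for each CBL line against EV, with 50 changed genes per size. It found 56% to 66% of 1.25-fold changes, 72% to 82% of 1.5-fold changes and 88% to 94% of 2-fold changes. Among 14818 to 14831 unchanged genes it called 6 to 12. Small changes can therefore be missed. Each table held 42847 lines for 39179 IDs, and the first of repeated lines was kept. Exon lengths, GC content and overlaps came from GENCODE M21, and promoters from RefSeq (GRCm38.p6).

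The 10 genes, the lists and the alternatives were chosen with earlier results of these data known. From each list the text names the up to 2 highest and 2 lowest called genes per line against EV without overlap between libraries, and for each of the 10 genes the most alike among genes that averaged 100 or more in some line, by Pearson's r. Members and predicted genes (Gm and Rik symbols) were left out of the latter. Taok3, Map4k4, Sav1, Mob1b, Nf2, Taok2 and Myof are also named for their values under the trend removal, and Wwtr1, Cyr61 and Stk3 in every line, after their values were seen. Amot, Wwc2, Mink1, Tead3, Foxf2, Ptpn14 and Dock5 are also given, after their values were seen, in further lines where they were called. Alternatives were edgeR 4.0.16 and DESeq2 1.42.0 on recovered reads, TMM scaling, pseudocounts of 0.5 and 5, no filter, a minimum of 50 in place of 10, only the lines compared, a replicate block, a natural spline (5 degrees of freedom) on exon length and GC content removed from each library, and each library left out.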

Additional observations from a re-analysis of the deposited data

How the results depend on the processing

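Over the 6 comparisons, the counts of called genes and of called members stayed within 1.5 times the reported count under all alternatives run. TMM scaling, pseudocounts of 0.5 and 5, no filter, the stricter filter, edgeR with either scaling and DESeq2 changed no direction or call of the 60 member values. On the recovered reads edgeR with TMM called 9265, 3794 and 6441 genes against EV in CBL-Y371S, CBL-70Z and WT-CBL, and DESeq2 called 8192, 2965 and 5341. With only the lines compared, the call of F3 in WT-CBL against EV was lost (adjusted p = 0.0584). Removal of the length and GC trend changed 5 of the 60: Yap1 in WT-CBL (-0.01) and CBL-70Z (-0.05) and Tead1 in CBL-Y371S (-0.05) against EV lost their calls, Tead1 in CBL-70Z against EV gained one (0.08), and Tead1 in CBL-Y371S against WT-CBL turned from -0.05 to 0.0625, which was called (adjusted p = 0.0441); the cause was not tested. The same removal took the regulators called from 18 to 10 in WT-CBL against EV and from 17 to 9 in CBL-70Z against CBL-Y371S, the targets from 8 to 5 in WT-CBL against EV, and the TEAD factors and cofactors from 5 to 3 in CBL-70Z against CBL-Y371S; without EV replicate 2 the regulators called in CBL-70Z against EV went from 8 to 5. Leaving out single libraries changed F3 in WT-CBL against EV (-0.08 to -0.12 where the call was lost) and Tead1 in CBL-Y371S against WT-CBL (-0.12 without WT-CBL replicate 3), and no other member value.

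No clear pairing of libraries by replicate number was seen, which does not exclude one. Of 18 same-numbered pairs, with correlations of deviations from -0.10 to 0.212, 1 was above 0.1. Pairs with different numbers ran from -0.20 to 0.14. With the replicate number as a block, 9143, 3619 and 6270 genes were called against EV in CBL-Y371S, CBL-70Z and WT-CBL in place of 9178, 3705 and 6383, and no call of the 10 genes changed. The block together with the trend removal gave 9, 7 and 7 called members against EV, and in CBL-Y371S against WT-CBL it gave 7 in place of the 8 without the block, since the call of Tead1 was lost (adjusted p = 0.0549). Of the 10 genes Ankrd1 had the fewest reads, 375 to 608, so depth limits it most.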
